A study of Mus musculus with 5 samples.

Results

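The Tbx2 and Tbx4 locus comprised the listed peaks of ubiquitinated histone H2A (the lysine mark H2AK119Ub) that overlapped a 140.0 kb window on mouse chromosome 11, from 85600000 to 85740000 (build mm9). It held 9 of the 5132 peaks in 4 lists, with 3 from the non-transduced library and 2 each from the HOXA9, PML-RARa and MLL-AF9 libraries. The locus was chosen by its peaks, which include the highest score of the HOXA9 list, so the scores and the presence of peaks at the locus are given as a description, without a test. The working positions of the genes were near 85.65 Mb for Tbx2 and near 85.71 Mb for Tbx4, given to the nearest 10 kb, and exons, introns and transcription start sites were not placed on the mm9 positions here.

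The chromatin came from lineage-negative bone marrow progenitors of C57BL/6 mice, labelled as haematopoietic stem cells and kept in liquid culture. All groups shared the genotype R26CreERT2;Ring1a-/-;Ring1bf/f;Cdkn2a-/-, that is, an inducible Cre at Rosa26, deletion of Ring1a, floxed Ring1b alleles and deletion of the tumour suppressor locus Cdkn2a. The labels give no Cre induction, age or number of animals. The groups were cells without transduction and cells transduced with HOXA9 (a homeobox factor), PML-RARa (the fusion of acute promyelocytic leukaemia) or MLL-AF9 (a fusion of acute myeloid leukaemia). Each had 1 library, so values below compare single libraries and carry no p-value. The samples include no group transduced with an empty vector, so the oncogene and the transduction cannot be told apart. The lists hold no expression data, so the labelled cell type could not be checked against marker genes.

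H2AK119Ub is written by Polycomb repressive complex 1 (PRC1), whose RING1A and RING1B subunits carry the ubiquitin ligase activity. It commonly forms broad domains over developmental transcription factor genes that are silent in a given cell type. Tbx2 and Tbx4 encode transcription factors of the T-box family, which bind DNA through a shared T-box domain. Tbx2 acts mainly as a repressor, shapes the atrioventricular canal of the heart, and is known to repress the p19ARF product of Cdkn2a. Tbx4 is best known for the hindlimb bud, the allantois and the lung mesenchyme. In the RefSeq gene order (assembly GRCm38.p6) Tbx2 (gene ID 21385) and Tbx4 (gene ID 21387) are direct neighbours with 0 annotated genes between them. The lncRNA 2610027K06Rik precedes Tbx2, and beyond it lies the protein-coding gene Bcas3. The pseudogene Gm11443 and the lncRNA Gm20759 follow Tbx4, and the next protein-coding gene is Brip1, which encodes a DNA helicase that partners BRCA1.

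The RefSeq promoter table matched 1 of the 2 members, Tbx4. Its sequence is shown for that reason only, and not because of the peaks. It covers 250 bases before to 50 bases after a Tbx4 start on the plus strand of GRCm38.p6, chr11:85896515-85896814. These are positions of the later build and are not comparable with the mm9 peak positions. This start lies inside the annotated span of Tbx4 and not at its first base. Capitals mark CG dinucleotides.
Tbx4: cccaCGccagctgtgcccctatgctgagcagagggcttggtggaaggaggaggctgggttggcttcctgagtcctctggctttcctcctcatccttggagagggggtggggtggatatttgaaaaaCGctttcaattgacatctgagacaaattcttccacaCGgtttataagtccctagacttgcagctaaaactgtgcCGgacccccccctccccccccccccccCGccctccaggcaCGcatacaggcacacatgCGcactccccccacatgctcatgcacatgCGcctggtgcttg
The window held 8 CG dinucleotides, against a median of 7 over the 32851 promoters of the table. Its G and C content was 59.0% (median 52.7%, percentile 68.9), and its ratio of observed to expected CG was 0.314 (median 0.384, percentile 43.4). On either strand it held no match to the T-box recognition sequence TCACACCT (present in 1.28% of promoters) or to the retinoic acid receptor element AGGTCA (16.3%). The short posterior HOX core TTTAT, which 40.0% of promoters hold, occurred at bases 166 to 170, on the plus strand. A match is a description of letters and not a binding site.

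The 9 peaks formed 2 separate regions, and both had a listed peak in all 4 libraries. Over the whole series 309 of 2575 merged regions did (12.0%), and nothing is read from this share, because the locus was picked with its peaks known. The Tbx2-side region ran from 85624043 to 85667244 (43.2 kb), and the Tbx4-side region from 85683992 to 85725712 (41.7 kb). An interval of 16.7 kb without a listed peak in any library lay between them. The working position of Tbx2 fell inside a peak in 4 of 4 libraries, and so did that of Tbx4. Of the 309 regions found in all 4 lists, 11 (3.56%) had another such region at this distance or less, with the 2 regions of the locus among them. The median distance to the nearest one was 623 kb. Nothing is read from this share either, because the window was set around both genes with their peaks known.

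**Figure D1:**
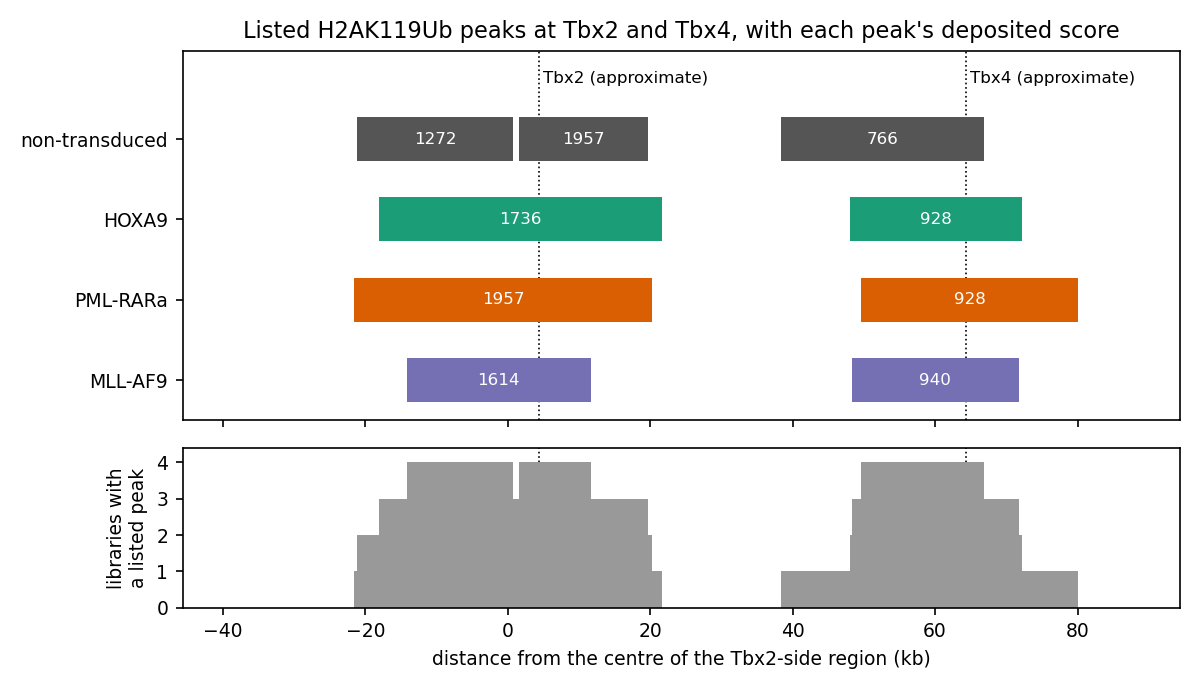
Listed peaks in the 140.0 kb window for each library (bars, with the deposited score of each peak) above the number of libraries with a listed peak at each position. The x axis is the distance in kb from the centre of the Tbx2-side region, and dotted lines mark the approximate gene positions; the non-transduced library has 3 bars and the others 2, and the non-transduced Tbx4-side bar starts 9.68 kb to the left of the others.

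The Tbx2 side held some of the highest scores of each list, and the Tbx4 side scores between percentiles 16.4 and 65.8. Scores are the authors' own values per peak with no stated scale, so they were only ranked within their own list. In the non-transduced list, the peak over the Tbx2 working position scored 1957 and ranked 3 of 1332, level with 1 other peak. In the HOXA9 list the Tbx2-side peak scored 1736 and ranked 1 of 620. The PML-RARa peak scored 1957 and ranked 19 of 1772, level with 5 others, and the MLL-AF9 peak scored 1614 and ranked 35 of 1408, level with 1 other. Each of these 4 lay at or above percentile 97.6 of its list. By its lowest percentile over the lists and by its mean percentile (99.1), the Tbx2-side region ranked 2 of the 309 regions found in all 4 lists.

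On the Tbx4 side, the non-transduced peak scored 766 and ranked 1115 of 1332 (percentile 16.4), level with 82 other peaks. The HOXA9 peak scored 928 and ranked 213 of 620 (percentile 65.8). The PML-RARa peak also scored 928, which ranked 971 of 1772 in that longer list (percentile 45.3), and the MLL-AF9 peak scored 940 and ranked 713 of 1408 (percentile 49.4). The non-transduced peak was thus the lowest placed of the 4 within its own list. The mean percentile of the Tbx4 side was 44.2, which ranked 275 of the 309 regions (median 66.4). The Tbx2-side and Tbx4-side regions thus ranked 2 and 275 in this ordering. These ranks are a description only, since the locus was chosen by its peaks.

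**Figure D2:**
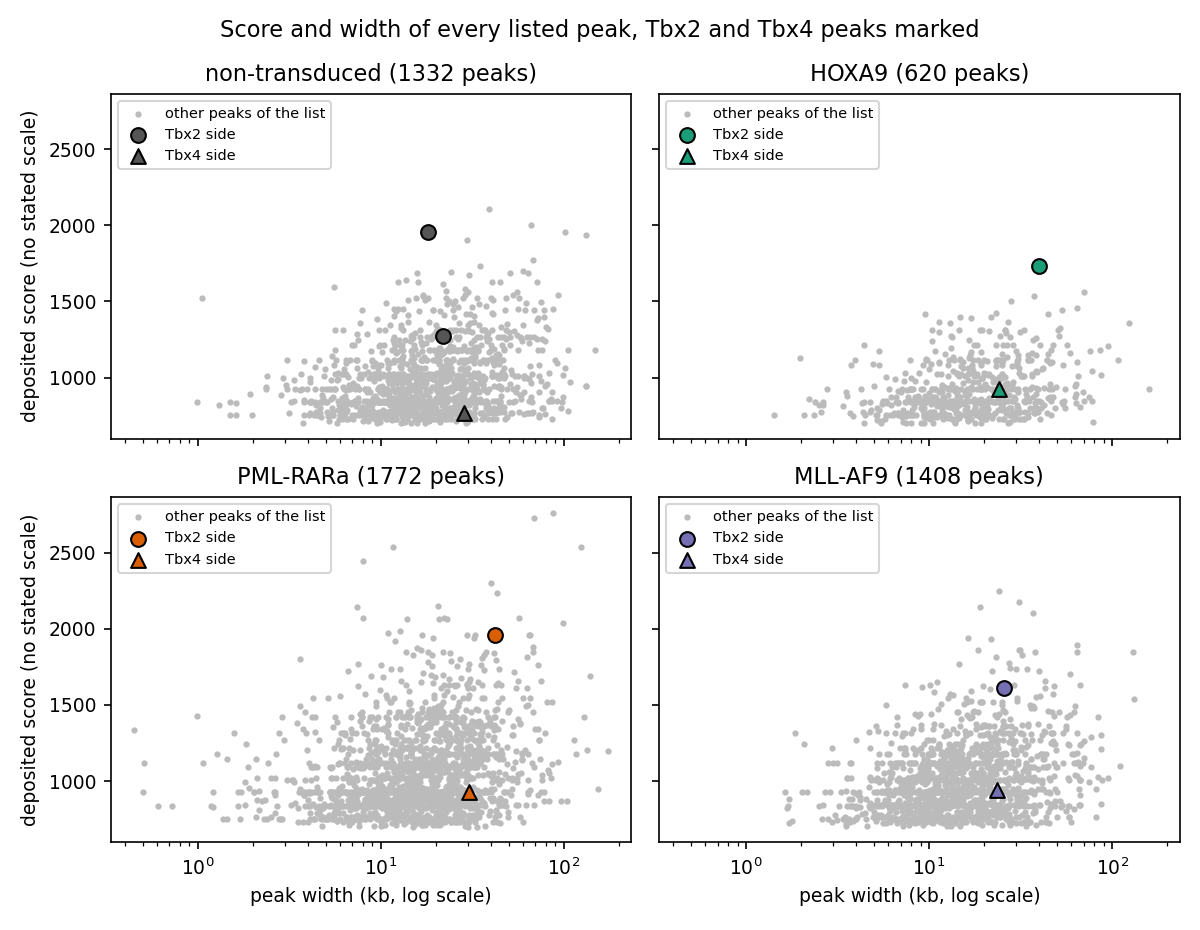
Width (kb, log scale) and deposited score of every listed peak, with 1 panel per library and the Tbx2-side (circles) and Tbx4-side (triangles) peaks marked. The highest circle of each panel lies at percentile 97.6 or above by score, and the triangles at percentiles 16.4 to 65.8, although the triangles are wider than the median peak of their list.

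The listed Tbx2-side peaks spanned about the same ground in 3 libraries and a shorter stretch in MLL-AF9. Over the whole lists, the median peak width was also lowest in MLL-AF9. It was 14.6 kb there, 15.95 kb in PML-RARa, 17.3 kb in HOXA9 and 18.3 kb in the non-transduced list. The PML-RARa peak ran from 85624043 to 85665881 (41.8 kb) and the HOXA9 peak from 85627585 to 85667244 (39.7 kb). The non-transduced library covered 40.1 kb in 2 pieces, from 85624461 to 85646369 (21.9 kb, score 1272, rank 137) and from 85647175 to 85665354 (18.2 kb, score 1957). The MLL-AF9 peak ran from 85631474 to 85657303 (25.8 kb) and lay inside both the HOXA9 and the PML-RARa peak. Its left edge was 7.43 kb inward of the outermost left edge, and its right edge 9.94 kb inward of the outermost right edge. MLL-AF9 thus had the innermost edge on both sides, as in 30 of the 309 regions (9.71%).

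On the Tbx2 side, the covered length divided by that of the non-transduced library was 0.989 for HOXA9, 1.04 for PML-RARa and 0.644 for MLL-AF9. Over the 309 regions the median ratio for MLL-AF9 was 0.936, with quartiles of 0.705 and 1.12, so the Tbx2 value lay below the lower quartile (percentile 19.4). The HOXA9 and PML-RARa ratios lay at percentiles 62.1 and 54.4 of their own distributions. All 4 libraries shared 25.0 kb of the Tbx2 side (57.9% of the region). The 8.05 kb from 85657304 to 85665354 were covered in the other 3 libraries but not in MLL-AF9. At their left, the 3.89 kb from 85627585 to 85631473 were also covered in those 3 libraries and not in MLL-AF9.

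The break between the non-transduced pieces was 805 bp long, from 85646370 to 85647174, and it was covered in the other 3 libraries. No smaller gap between successive peaks occurred in the non-transduced list, where 46 of 1312 gaps (3.51%) were at most 1000 bp. The smallest gap was 802 bp in the MLL-AF9 list, 803 bp in PML-RARa and 804 bp in HOXA9. The peaks had consecutive numbers in the authors' numbering (230 and 231), so no numbered peak was left out between them. More than 1 non-transduced peak occurred in 27 of the 309 regions (8.74%). The pieces differed in score (1272 against 1957), and the one with the higher score held the Tbx2 working position as given to the nearest 10 kb. That position lay only 2.8 kb from the left edge of this piece. Which piece lay over Tbx2 could therefore not be settled.

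On the Tbx4 side the non-transduced peak began and ended further to the left than the 3 oncogene peaks. The non-transduced peak ran from 85683992 to 85712485 (28.5 kb), the HOXA9 peak from 85693668 to 85717826 (24.2 kb), the PML-RARa peak from 85695224 to 85725712 (30.5 kb) and the MLL-AF9 peak from 85693929 to 85717445 (23.5 kb). The 3 oncogene left edges lay within 1.56 kb of each other (median over the 309 regions 4.34 kb, percentile 27.2), and the non-transduced left edge lay 9.68 kb to the left of them. On the right, the non-transduced peak ended 4.96 kb before the shortest oncogene peak. The oncogene right edges spread over 8.27 kb, with PML-RARa reaching 7.89 kb beyond HOXA9. This spread was above the median of 4.24 kb over the 309 regions (percentile 70.9). It was also larger than the 4.96 kb by which the non-transduced peak fell short. The 3 oncogene libraries were thus close to each other on the left edge. On the right edge HOXA9 and MLL-AF9 were 381 bp apart, and PML-RARa alone lay further out.

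This placement, with the non-transduced peak outermost on the left and innermost on the right, occurred in 19 of the 309 regions (6.15%). The reverse, innermost on the left and outermost on the right, occurred in 14 (4.53%). A non-transduced left edge at least this far to the left of the oncogene edges occurred in 11 of the 309 regions (3.56%), whatever the right edge. The pattern was picked after its values were seen, in 1 library per group, and the depth of the libraries, which bears on peak edges, is unknown. Its cause was not tested. The non-transduced peak was also of low score, and it ended 2.49 kb past the working position of Tbx4, which is given only to the nearest 10 kb. Whether it reached over the same part of Tbx4 as the others could not be settled.

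**Figure D3:**
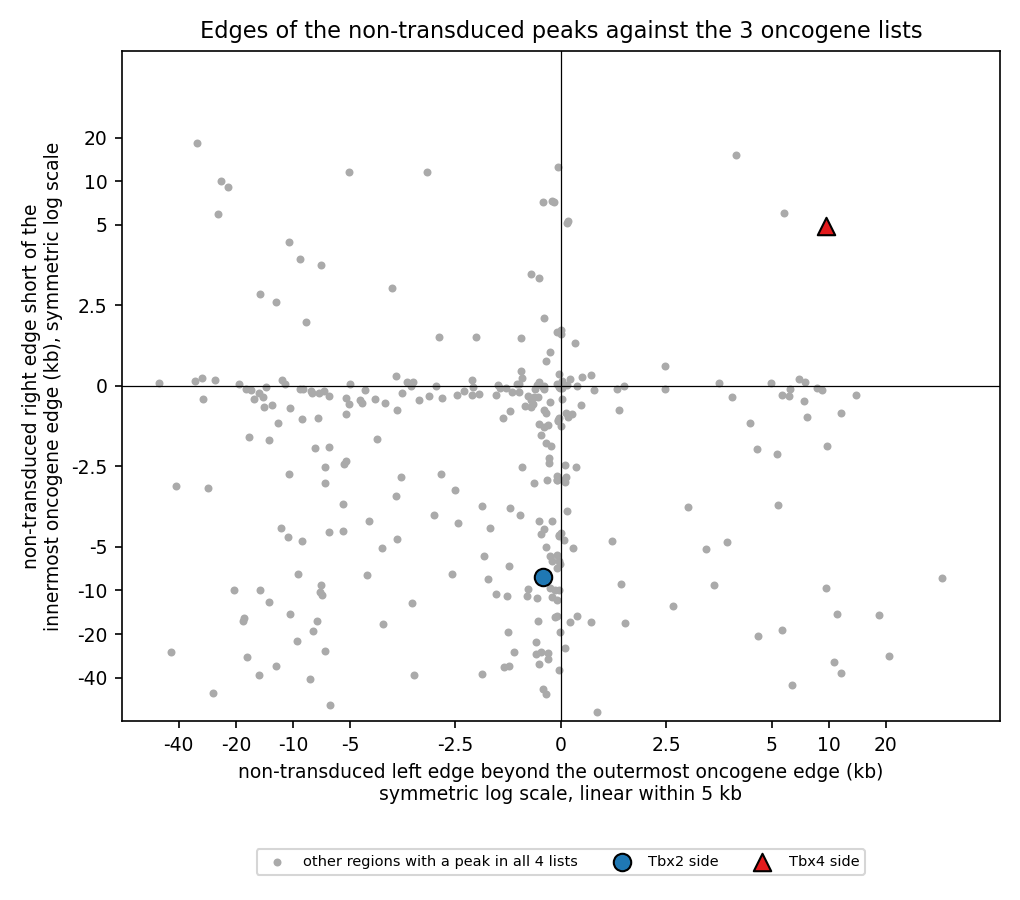
Edges of the non-transduced peaks against the 3 oncogene lists for the 309 regions with a peak in all 4 lists (grey points; symmetric log axes in kb). The x axis is how far the non-transduced left edge lies beyond the outermost oncogene left edge and the y axis how far its right edge stops short of the innermost oncogene right edge; the Tbx4 side (triangle) is at 9.68 and 4.96 kb, and the Tbx2 side (circle) at -0.418 and -8.05 kb.

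The HOXA9 and MLL-AF9 peaks on the Tbx4 side were nearly the same interval. Their left edges were 261 bp apart and their right edges 381 bp apart, and the length they shared was 0.973 of their joint length (percentile 94.2 of the 309 regions, median 0.767). The same measure was 0.651 on the Tbx2 side (percentile 34.0). For the non-transduced and PML-RARa libraries the order was the other way round, with 0.958 on the Tbx2 side (percentile 91.6) and 0.414 on the Tbx4 side (percentile 9.39, median 0.754). The pair of libraries that matched best at Tbx2 therefore matched worst at Tbx4. The 17.3 kb covered in all 4 libraries on the Tbx4 side, from 85695224 to 85712485, were 41.4% of the region, and 42.1% of it was covered in 1 library only. With the upper 75%, the upper 50% or the best 620 peaks of each list, the shared length there was 0 kb, since the non-transduced peak was no longer included.

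Over both regions, PML-RARa peaks covered 72.3 kb of the window, non-transduced peaks 68.6 kb, HOXA9 peaks 63.8 kb and MLL-AF9 peaks 49.3 kb. The order of covered length was the same on both sides, with PML-RARa first, then the non-transduced library, HOXA9 and MLL-AF9. This order held in 34 of the 309 regions (11.0%). On the Tbx2 side the filters by score removed no peak, so the order there stayed the same. The order over the whole window depended on which lists kept their lower-scoring Tbx4-side peak. With the upper 75% of each list by score, the non-transduced library covered 40.1 kb of the window, less than the 49.3 kb of MLL-AF9. With the upper 50%, or the best 620 peaks, PML-RARa covered 41.8 kb, less than the 63.8 kb of HOXA9. In the full lists, MLL-AF9 covered the least in 106 of the 309 regions (34.3%) and HOXA9 in 99. On the Tbx4 side the ratios to the non-transduced library were 1.07 for PML-RARa, 0.848 for HOXA9 and 0.825 for MLL-AF9, and all 3 lay between percentiles 41.1 and 57.9 of their distributions. The shorter MLL-AF9 coverage was therefore mostly on the Tbx2 side, which was 1.10 times as long as the Tbx4 side in MLL-AF9 and 1.37 to 1.64 times as long in the other libraries. No base of the window was covered in MLL-AF9 alone, whereas the non-transduced library covered 9.68 kb alone and PML-RARa 8.30 kb.

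**Figure D4:**
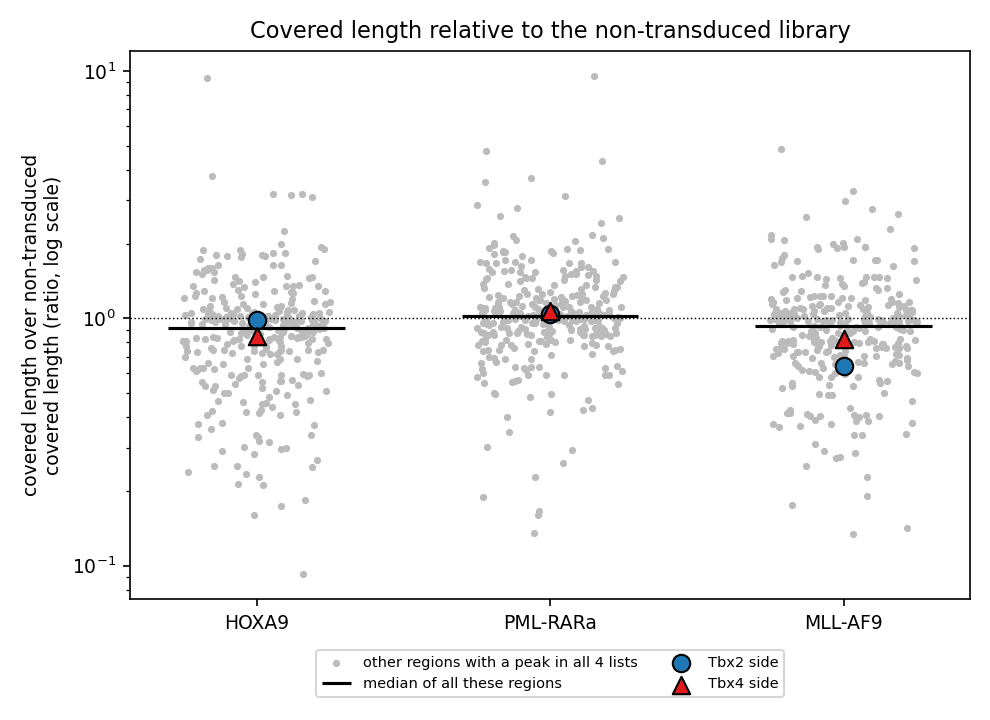
Covered length in each oncogene library divided by that in the non-transduced library, on a log scale, for the 309 regions with a peak in all 4 lists (grey points spread sideways for visibility, horizontal line at the median). The Tbx2 side (circle) is at 0.989, 1.04 and 0.644 and the Tbx4 side (triangle) at 0.848, 1.07 and 0.825, for HOXA9, PML-RARa and MLL-AF9 from left to right.

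In width, the single Tbx2-side peaks of HOXA9, PML-RARa and MLL-AF9 were 2.29, 2.62 and 1.77 times the median of their list. The separate non-transduced pieces were 1.20 and 0.992 times the median of theirs. The Tbx4-side peaks were 1.40 to 1.91 times the median in the 4 lists. The HOXA9 peak over Tbx2, first by score, ranked 64 of 620 by width.

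The locus stood alone on its stretch of chromosome 11. The nearest listed peak to the left was 842 kb away in the non-transduced list, 843 kb in PML-RARa, 854 kb in HOXA9 and 1171 kb in MLL-AF9. The nearest to the right was 1849 kb away in PML-RARa, 2192 kb in MLL-AF9, 3444 kb in the non-transduced list and 8612 kb in HOXA9. Missing peak numbers bear on whether further numbered peaks were left out of the lists here. Numbers ran in order along each chromosome, and 0 numbers were missing between the peaks of the window, or between them and the preceding listed peak, in 4 of 4 lists. To the right, 0 numbers were missing in HOXA9, PML-RARa and MLL-AF9, and 1 (between 232 and 234) in the non-transduced list, somewhere before 89156250. The uncovered MLL-AF9 flanks at Tbx2 and the empty 16.7 kb between the regions therefore held no numbered peak that was dropped from a list. The absence of a numbered peak does not show that the mark was absent.

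By a rule on score, the 5 regions whose score percentiles in the 4 lists were closest to those of the Tbx2 side were named by position, with the summed difference over the 4 lists as the measure. The closest was chromosome 15, 88954187 to 89041315, with a summed difference of 3.24 percentile points. The next were chromosome 15, 98587466 to 98642154 (6.48), and chromosome 6, 52141970 to 52210289 (6.78). They were followed by chromosome 3, 89067745 to 89158541 (10.5), and chromosome 14, 121844332 to 121882200 (11.8). MLL-AF9 covered the least length in 4 of these 5, with 64.2, 11.1, 26.4 and 43.2 kb in order of likeness, against 34.3% of the 309 regions. With 5 regions, nothing is read from this count. On chromosome 14 the non-transduced library covered the least (18.4 kb). These 5 regions were matched on score alone, and nothing follows from the match about shared control.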

How the data were processed

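The authors made 1 peak list per library with Bowtie and MACS2 on build mm9, per the submitters' processing notes. Versions, settings and any use of the input were not given in the sources used here. The deposited lists have 5 columns without a header, and the score of each peak is the authors' value (lowest 700). Peak edges were taken to follow the BED convention and are printed 1-based. Peaks overlapping the window by at least 1 bp were members. Overlapping or touching peaks of the 4 lists were joined into regions. Percentiles are the share of a list, or of the 309 regions found in all 4 lists, at or below the value. Read depth is unknown, the input was not analysed here, and no test was possible with 1 library per group. Members, lists and comparisons were chosen with earlier results of these data known. Named genes were the members and their neighbours in RefSeq order; the planned protein identities were left out, since no protein sequences were used here. Promoter features of the other T-box genes were computed where the promoter table held them, but are not reported here. The interval code was tested on 20 simulated sets of lists and recovered 20. The software was matplotlib 3.10.9, scipy 1.17.1, pandas 2.3.3, numpy 2.4.6 and Python 3.11.15.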

Additional observations from a re-analysis of the deposited data

How the results depend on the processing

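Of 108 values recomputed under alternative settings, 83 stayed within 1.5 times their value, or within the exact 95% binomial interval for percentiles, and 25 did not. Widening the window by 50 kb on each side (18 values) or using whole peaks (6 values) moved none. Neither could, since all peaks of the window lay inside it and the nearest other listed peak was 842 kb away. These values therefore do not measure robustness. The best 620 peaks are the whole HOXA9 list, so the HOXA9 values could not move under that setting. Without the HOXA9 list, or without the non-transduced or the MLL-AF9 list (both added after seeing the data), the length common to the remaining lists stayed at 25.0 to 37.0 kb on the Tbx2 side and 17.3 to 22.2 kb on the Tbx4 side. Leaving out a list can only keep or lengthen this common length. The Tbx4 side depended on the low-scoring non-transduced peak. With the upper 75% by score, the upper 50%, or the best 620 peaks of each list, that peak was lost, the length shared by all lists there fell to 0 kb, the covered length of the non-transduced library fell to 40.1 kb, and no edge spread over 4 lists could be given. With the upper 50% or the best 620, PML-RARa kept 1 peak (41.8 kb) and MLL-AF9 1 peak (25.8 kb), both on the Tbx2 side. Their best score percentiles became 98.0 and 95.2 with the upper 50%, and 97.1 and 94.5 with the best 620. The peaks kept their score ranks of 19 and 35, so these percentiles fell only because the lists were shortened. The percentile of the widest peak became 56.8 (upper 75%) and 51.5 (upper 50%) in the non-transduced list. There the widest peak as listed, on the Tbx4 side (percentile 73.5), was lost. These values therefore belong to another peak, the 21.9 kb piece on the Tbx2 side. With the upper 50% the percentile of the widest peak became 72.2 in MLL-AF9, 85.5 in HOXA9 and 88.5 in PML-RARa. Merging peaks within 1000 bp, which joined the non-transduced pieces, gave 85.9 in the non-transduced list and 90.6 in PML-RARa. The Tbx2-side shared length stayed at 25.0 to 25.8 kb under these filters and merging. No paired analysis was possible because each group had 1 library.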

Other observations

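Scores in these lists took few values. The 5132 peaks held 413 distinct scores, of which 111 occurred in every list. At the locus, the score of 1957 on the Tbx2 side was held by 2 non-transduced and 6 PML-RARa peaks. The score of 928 on the Tbx4 side was held by 28 HOXA9 and 130 PML-RARa peaks, and the score of 766 by 83 non-transduced peaks. Ranks in the middle and lower part of a list are therefore coarse, and equal scores in different lists are no measure of equal enrichment.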
